A study of Mus musculus with 20 samples.

Results

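The genes described here are the mouse Zfp genes, named Zfp and a number in the platform annotation, as measured in liver after trauma and hemorrhagic shock. They were chosen by that symbol alone, without Zfp36, the Zfp36-like genes and Zfp467, and each was represented by its brightest probe set. To count as measured, a probe set needed a value over the array median on 3 or more of the 20 arrays. Of 303 Zfp genes with a probe set of their own, among 18193 such genes on the array, 227 passed that limit and 76 did not. Of the 76, 46 were above the median on no array, 21 on 1 array and 9 on 2 arrays. All tests below were fitted on the 12832 genes that passed, of which the Zfp genes are 227.

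Most proteins of this set carry C2H2 zinc fingers, small folds held by a zinc ion, and a row of such fingers reads a stretch of DNA. Many join their fingers to a KRAB domain, which recruits Trim28 (also called KAP1) and, through it, the histone methyltransferase Setdb1 and HP1 proteins, so that the bound DNA is packed into silent chromatin. Much of what KRAB zinc finger proteins bind is transposon and retroviral sequence, and their genes lie in clusters on several chromosomes. Other Zfp genes encode unrelated proteins that bind RNA, ribosomes or ubiquitin pathway partners, so that the shared symbol does not stand for one function.

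RNA of whole liver from male C57BL/6 mice, 8 to 12 weeks old, had been copied from oligo-dT primers and hybridised to Affymetrix Mouse430_2 arrays. Non-manipulated mice were the control (n = 5). Other mice had minor trauma (n = 3), severe trauma with 1.5 h of hemorrhagic shock (the shock group, n = 4), or that shock and trauma with resuscitation for 1 h (n = 4) or 4.5 h (n = 4). The labels used here do not say what minor trauma means or when its livers were taken. No label names a transgene or drug, and nothing in the labels says that arrays share a mouse. If some arrays do not come from separate mice, the p-values measure only the spread between these samples.

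Values are given as log2 of the deposited signal plus 6 after quantile normalization over the 20 arrays, called log2 values below. On this scale the array median is 4.604, and a difference understates the change of dim genes. The Zfp probe sets were dim, with a median log2 value of 5.45 against 6.51 for all genes tested. On every one of the 20 arrays 110 of the 227 were above the array median, and 36 were above it on fewer than 10 arrays. A gene is called where limma's adjusted p, over all 12832 genes, is at most 0.05, and ± gives the standard error of a difference. If no array of the lower group exceeded the array median, the fold is a bound and is written as at least that size.

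Some arrays stood apart. On the array minor trauma 3, 163 Zfp genes were above the array median, against 195 and 191 on the other minor trauma arrays, and limma's array weights gave it 0.177, the lowest of the 20. The array control 5 (weight 0.547) lay with the minor trauma arrays for several genes below. The dap spike-in probe sets split the arrays into 10 bright (283 to 1450) and 10 dark (1.11 to 6.67), and both sets held every group. Hepatocyte markers (8 of 8 tested) summed to log2 values of 15.72 to 15.87 on every array. Such a sum rests on the brightest markers, whose values quantile normalization holds close together, so its steadiness says little about hepatocyte content. Against control 1 of the 8 was called lower at 1 h and 1 at 4.5 h. Of 10 neutrophil markers 7 were tested (Ly6g, Cxcr2 and Retnlg were too dim). Their summed log2 value ranged from 6.91 to 8.76 in control, 8.28 to 9.25 in minor trauma, 9.10 to 11.23 in shock, 11.42 to 12.08 at 1 h and 12.00 to 12.16 at 4.5 h. All 7 were called higher than in control in shock, at 1 h and at 4.5 h, and 2 were in minor trauma. In whole liver, fewer cells of a type and less RNA per cell cannot be told apart, and the part of the neutrophil signal in the Zfp values was not tested.

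As a set, Zfp mRNAs lay below control at the end of shock and after 1 h of resuscitation, and near control at 4.5 h. The median change against control over the 227 genes was -0.21 in shock and -0.29 at 1 h, beside -0.03 and -0.07 over all genes tested. At 4.5 h it was -0.04, beside -0.09. In minor trauma it was -0.13, beside -0.002, and its sign there changed under alternatives (-0.21 to 0.03). There 147 of the 227 (64.8%) had a value below control, beside 50.3% of all genes. In shock 178 of the 227 (78.4%) had a value below control, beside 55.2% of all genes, and at 1 h 182 (80.2%) beside 60.8%. The lower values were spread over dim and bright members. In shock the median was -0.22 in the brighter 114 Zfp genes and -0.20 in the dimmer 113, and at 1 h it was -0.32 and -0.27.

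The same was seen array by array. The median over the 227 genes of the log2 value minus the control mean lay between -0.04 and 0.07 on the 5 control arrays. It lay between -0.29 and -0.17 on the 4 shock arrays and between -0.31 and -0.19 on the 4 arrays of 1 h, so that neither group overlapped the control arrays. The 4 arrays of 4.5 h lay between -0.09 and 0.03. Over all genes tested the same median lay between -0.10 and, on minor trauma 3, 0.13 on the 20 arrays. Quantile normalization holds that median near 0, so its steadiness says little, and the control arrays are set against their own mean. For the Zfp genes minor trauma gave -0.02, -0.03 and, on minor trauma 3, -0.17. Within the 10 arrays with a bright dap signal the median change was -0.23 in shock and -0.24 at 1 h, and within the other 10 it was -0.25 and -0.31.

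**Figure D1:**
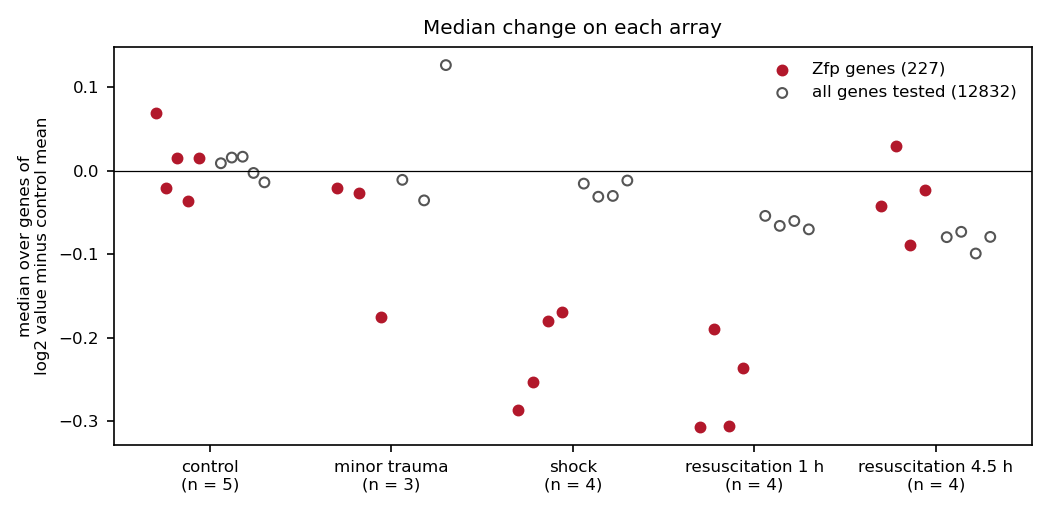
Median change on each array, on the log2 scale, taken over genes as the log2 value minus the mean of the 5 control arrays, with 1 point per array. Filled points are the 227 Zfp genes and open points all 12832 genes tested. The Zfp points of shock and of 1 h lie between -0.31 and -0.17, below all control points, and those of 4.5 h lie between -0.09 and 0.03.

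At the end of shock 14 of the 227 Zfp genes (6.17%) were called lower than in control and 1 (0.441%) higher. Among all genes tested 1.08% were called lower and 2.03% higher, 3.11% in either direction. The genes called lower were Zfp503, Zfp950, Zfp809, Zfp39, Zfp647, Zfp954, Zfp84, Zfp866, Zfp574, Zfp825, Zfp35, Zfp790, Zfp346 and Zfp961, with changes from -1.74 to -0.53. The gene called higher was Zfp949. Log2 differences of 2-fold size or more were seen in 5 of the 14, though the bound for Zfp647 is lower than 2-fold. Among all genes called lower, they were seen in 33 of 139. The count rests in part on 2 arrays, being 7 in all (6 lower) without shock 2 and 28 (25 lower) without minor trauma 3. Within the arrays with a bright dap signal, and within the others, 1 of 212 Zfp genes was called, lower in both. Among all genes tested 154 of 12135 and 53 of 11990 were called there. The Zfp share was thus below that of all genes in the bright set and close to it in the others.

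Zfp503, also known as Nolz1, a transcriptional repressor that works in development of the brain and limb, had the largest fall in shock. Its log2 values were 6.24, 5.53, 5.81, 5.61 and 5.27 in control and 4.93, 5.20 and 5.50 in minor trauma. They were 3.97, 4.13, 3.61 and 4.08 in shock, 3.76, 4.18, 4.58 and 4.15 at 1 h and 4.70, 4.47, 4.69 and 4.79 at 4.5 h. All 12 shock and resuscitation arrays lay below every control and every minor trauma array. The change against control was -1.74 ± 0.21 in shock (at least 2.12-fold lower, limma adjusted p = 1.44e-05), -1.52 ± 0.21 at 1 h (at least 2.12-fold, 3.41e-05) and -1.03 ± 0.21 at 4.5 h (2.04-fold, 0.000489).

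Zfp950 was nearly level within each group except minor trauma. It read 7.36, 7.27, 7.0, 7.24 and 7.20 in control, 5.98, 5.87, 5.99 and 5.92 in shock, 6.53, 6.59, 6.80 and 6.28 at 1 h and 7.21, 7.48, 7.22 and 7.06 at 4.5 h. The shock arrays lay below all others of these groups, the 1 h arrays lay between shock and control, and the 4.5 h arrays overlapped control. In shock it fell 2.42-fold (-1.27 ± 0.28, limma adjusted p = 0.0115), while at 1 h the change was -0.66 ± 0.28 (adjusted p = 0.159). With the mean of its 3 kept probe sets the change in shock was -0.82 (adjusted p = 0.0791). In minor trauma it read 7.38 and 7.63 on 2 arrays and 5.39 on minor trauma 3.

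Zfp809, the KRAB zinc finger protein that silences murine leukemia proviruses through their primer binding site, read 7.73, 7.84, 7.89, 7.70 and 8.00 in control. It read 6.54, 6.50, 6.52 and 7.21 in shock, 6.66, 7.39, 6.85 and 7.14 at 1 h and 8.45, 8.22, 7.70 and 7.72 at 4.5 h. Shock and 1 h did not overlap control, and 4.5 h did. It fell 2.20-fold in shock (-1.14 ± 0.23, limma adjusted p = 0.00482) and 1.77-fold at 1 h (adjusted p = 0.0219), and from 1 h to 4.5 h it rose 2.02-fold (1.01 ± 0.24, adjusted p = 0.00244).

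Zfp39 read 5.77, 5.29, 6.08, 5.75 and 5.49 in control, 4.49, 4.35, 4.68 and 4.71 in shock, 4.21, 3.85, 4.33 and 2.81 at 1 h and 5.22, 5.35, 5.54 and 5.06 at 4.5 h. Each array of 1 h was below each of shock, and each of shock was below each of 4.5 h. The change in shock was -1.11 ± 0.25 (2.17-fold lower, limma adjusted p = 0.0143), and the call was lost without shock 2. At 1 h it had the largest fall of all 227 Zfp genes, -1.87 ± 0.25 (at least 2.10-fold lower, adjusted p = 2.78e-05). From 1 h to 4.5 h it rose by 1.49 ± 0.27 (at least 1.61-fold, adjusted p = 0.000205). These are values of its brightest probe set. The other kept one had the same signs without a call. It read -0.70 in shock (adjusted p = 0.272), -0.78 at 1 h (adjusted p = 0.117) and 0.81 from 1 h to 4.5 h (adjusted p = 0.0578).

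The promoters of these 4 genes are shown because they had the 4 largest called falls in shock. Each is the 250 bases before the annotated start, 5′ to 3′ on the gene's strand, from RefSeq on GRCm38.p6. Zfp503 lies at chr14:21989602-21989851 on the minus strand, Zfp950 at chr19:61140841-61141090 (minus), Zfp809 at chr9:22225453-22225702 (plus, the first of 2 listed starts) and Zfp39 at chr11:58904226-58904475 (minus). Capitals mark CCAAT boxes, read as CCAAT or, on the other strand, ATTGG.
Zfp503: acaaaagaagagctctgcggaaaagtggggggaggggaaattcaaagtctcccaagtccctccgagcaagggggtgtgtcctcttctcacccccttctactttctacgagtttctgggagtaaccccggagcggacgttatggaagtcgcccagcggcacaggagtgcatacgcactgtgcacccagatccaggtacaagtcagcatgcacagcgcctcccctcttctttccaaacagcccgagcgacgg
Zfp950: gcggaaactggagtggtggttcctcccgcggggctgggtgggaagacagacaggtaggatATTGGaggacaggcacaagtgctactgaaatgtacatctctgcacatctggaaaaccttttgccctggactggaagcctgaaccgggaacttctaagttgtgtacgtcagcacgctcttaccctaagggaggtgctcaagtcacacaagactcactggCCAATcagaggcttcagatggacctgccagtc
Zfp809: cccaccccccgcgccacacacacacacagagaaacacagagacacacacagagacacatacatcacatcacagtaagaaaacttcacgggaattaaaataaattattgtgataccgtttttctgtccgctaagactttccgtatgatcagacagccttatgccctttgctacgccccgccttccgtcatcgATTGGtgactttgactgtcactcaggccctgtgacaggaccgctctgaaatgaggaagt
Zfp39: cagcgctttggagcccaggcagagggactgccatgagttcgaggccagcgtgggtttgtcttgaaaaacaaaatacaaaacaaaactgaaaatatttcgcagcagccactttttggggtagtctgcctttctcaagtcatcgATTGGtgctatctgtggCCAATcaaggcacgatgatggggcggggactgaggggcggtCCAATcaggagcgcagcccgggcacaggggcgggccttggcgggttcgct
The window of Zfp39 holds 3 CCAAT boxes, that of Zfp950 2, that of Zfp809 1 and that of Zfp503 none. The G and C content was 57.2% for Zfp503, 54% for Zfp950, 48.4% for Zfp809 and 56% for Zfp39.

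Promoters were matched for 187 of the 227 Zfp genes. A CCAAT box was found in 97 of the 187 (51.9%), beside 37.5% of all 27025 genes of the promoter table. Among the Zfp genes lower in shock 9 of the 11 matched (81.8%) had one, and among those lower at 1 h 14 of 26 (53.8%). The ETS core CCGGAA stood in 34.2% of the Zfp genes and 13.6% of all genes, and the GC box GGGCGG in 50.8% and 35.4%. The hypoxia response core ACGTG stood in 22.5% and 18.5%, and in none of the 11 lower in shock. The cAMP response element TGACGTCA stood in 3.74% and 1.77%, and the AP-1 site TGANTCA in 4.81% and 7.82%. Both strands were searched, matches of different motifs may overlap, and a match is a run of letters, not a bound site.

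Zfp647 read 4.87 to 5.30 in control and 3.64, 3.81, 4.47 and 4.34 in shock, below every control array and every minor trauma array. It was at least 1.42-fold lower in shock (-1.04 ± 0.22, limma adjusted p = 0.00716) and at 1 h (-1.29 ± 0.22, adjusted p = 0.000375), and -0.64 ± 0.22 at 4.5 h (adjusted p = 0.0235). Zfp866 fell 1.75-fold in shock (-0.81 ± 0.16, adjusted p = 0.00605), with 5.20 to 5.42 in shock and 5.76 to 6.63 in control. Zfp84 (-0.86 ± 0.18) and Zfp954 (-0.98 ± 0.25) did not overlap control either, but leaving out 1 of 3 arrays for Zfp84, or 1 of 6 for Zfp954, ended the call. The other 2 kept probe sets of Zfp84 read -0.33 (adjusted p = 0.499) and -0.28 (adjusted p = 0.642). With values as deposited, without scaling between arrays, Zfp647, Zfp866, Zfp84 and Zfp954 lost their calls in shock. Zfp346, which binds double-stranded RNA, changed by -0.61 ± 0.16 (adjusted p = 0.0466), and its other kept probe set read -0.30 (adjusted p = 0.795).

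Zfp949 was the only Zfp gene called higher in shock. Its log2 values were 5.0, 4.95, 5.18, 5.0 and 5.29 in control, 5.43, 5.54 and 5.90 in minor trauma, 6.20, 5.52, 5.89 and 5.79 in shock, 5.91, 6.71, 6.96 and 6.15 at 1 h and 6.61, 6.15, 5.82 and 6.39 at 4.5 h. Every array of the 4 injury groups lay above every control array. It rose 1.70-fold in shock (0.77 ± 0.20, limma adjusted p = 0.0413), a call lost without any one of 8 arrays, with values as deposited and with equal trimmed means. It rose 2.55-fold at 1 h (1.35 ± 0.20, adjusted p = 0.00011) and 2.23-fold at 4.5 h (1.16 ± 0.20, adjusted p = 0.000117). These are values of its brightest probe set. The other kept one read -0.60 in shock (adjusted p = 0.274), 0.38 at 1 h (adjusted p = 0.439) and -0.45 at 4.5 h (adjusted p = 0.183). With the mean of both, Zfp949 was at 0.085 in shock (adjusted p = 0.901) and 0.35 at 4.5 h (adjusted p = 0.14).

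**Figure D2:**
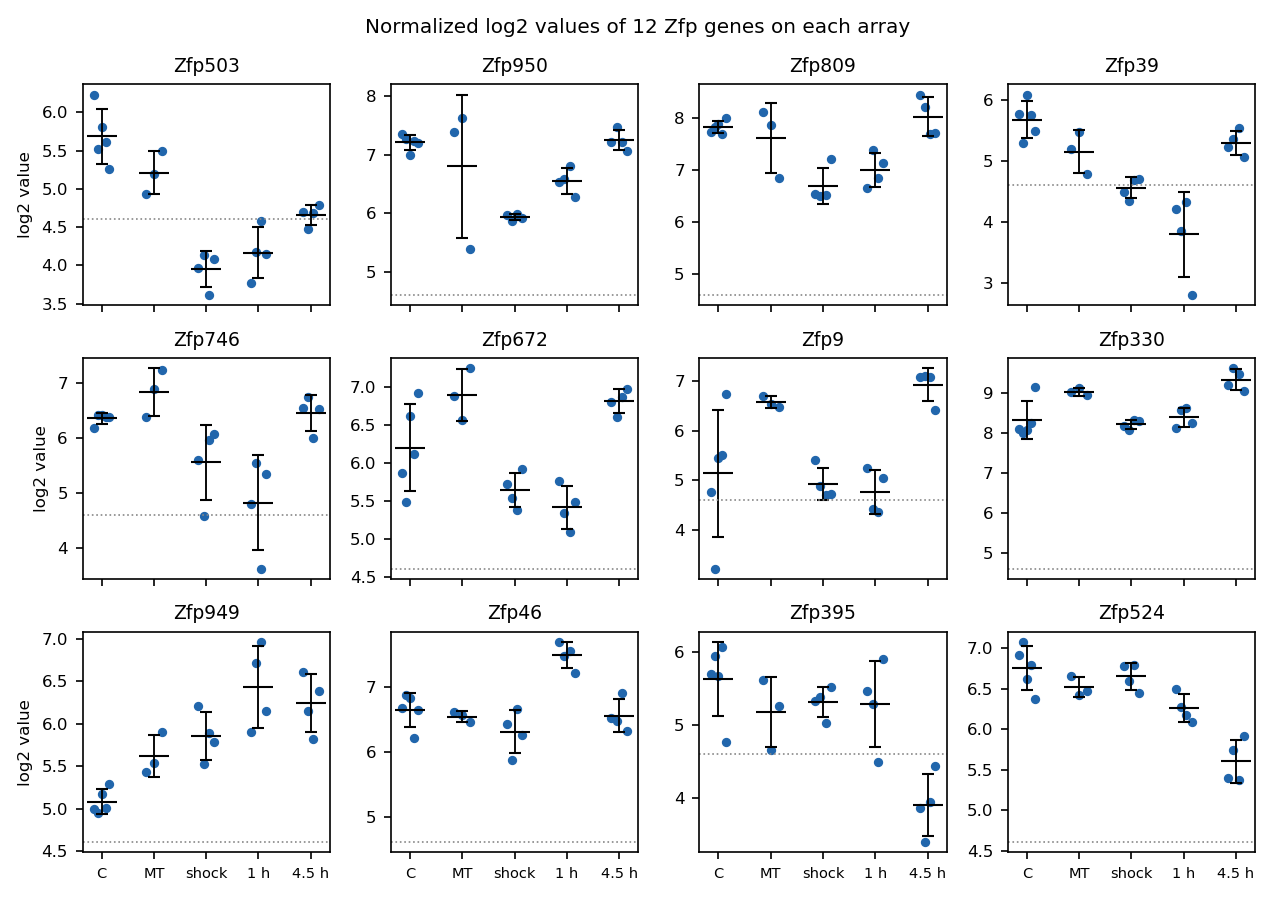
Log2 values of 12 Zfp genes on each array in control (C), minor trauma (MT), shock and after 1 h and 4.5 h of resuscitation. Points are arrays, the long bar is the group mean and the short bars are the SD, and the dotted line marks the array median of 4.604. Zfp503, Zfp950, Zfp809 and Zfp39 are low in shock, Zfp46 is high at 1 h only, and Zfp395 and Zfp524 are lowest at 4.5 h.

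After 1 h of resuscitation 32 Zfp genes (14.1%) were called lower than in control and 4 (1.76%) higher. Among all genes tested 5.31% were lower and 4.61% higher, 9.91% in either direction. Log2 differences of 2-fold size or more were seen in 10 of the 32 and 2 of the 4. Among all genes called, they were seen in 100 of 681 lower and 347 of 591 higher. The bounds for some of the 10, Zfp647, Zfp324 and Zfp128 among them, are lower than 2-fold. Without the array 1 h 3 the count was 22 in all, 18 of them lower. Within the arrays with a bright dap signal 3 of 212 Zfp genes were called, 1 lower and 2 higher, beside 446 of 12135 genes tested. Within the others 10 of 212 were called, 9 lower and 1 higher, beside 290 of 11990. The Zfp share was thus below that of all genes in the bright set and above it in the others.

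Zfp746, also called PARIS, a repressor of the PGC-1alpha gene that parkin marks for degradation, had the second largest fall at 1 h. It read 6.18, 6.42, 6.41, 6.38 and 6.38 in control, 6.38, 6.89 and 7.23 in minor trauma, 5.59, 4.58, 5.96 and 6.08 in shock, 4.79, 5.54, 3.62 and 5.34 at 1 h and 6.55, 6.74, 5.99 and 6.52 at 4.5 h. All arrays of shock and of 1 h lay below all control arrays, with a wide spread. It fell 2.89-fold at 1 h (-1.53 ± 0.32, limma adjusted p = 0.00306), and in shock the change was -0.80 ± 0.32 (adjusted p = 0.229). It rose 3.09-fold from 1 h to 4.5 h (1.63 ± 0.34, adjusted p = 0.000818).

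Zfp329 read 5.71, 6.07, 5.95, 5.93 and 5.95 in control, 5.10, 5.21, 4.74 and 5.38 in shock, 4.62, 4.88, 4.65 and 3.95 at 1 h and 6.38, 6.39, 5.92 and 6.04 at 4.5 h. Shock and 1 h lay below all control arrays, and 4.5 h overlapped them. It fell 2.63-fold at 1 h (-1.40 ± 0.30, limma adjusted p = 0.00392). In shock the change was -0.81 ± 0.30 (adjusted p = 0.18), and from 1 h to 4.5 h it rose 3.16-fold (1.66 ± 0.32, adjusted p = 0.000399).

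Zfp324, Zfp128 and Zfp750 completed the 8 largest falls at 1 h. Zfp324 (-1.37 ± 0.31) and Zfp128 (-1.36 ± 0.29) lay at or below the array median on every array of 1 h, and were at least 1.07-fold and 1.25-fold lower. Zfp128 read 3.42, 4.23, 3.28 and 3.32 at 1 h against 4.47 to 5.18 in control. Zfp750, a regulator of epidermal differentiation, changed by -1.26 ± 0.36 (2.39-fold, limma adjusted p = 0.028), and leaving out any 1 of 5 arrays ended the call. Among the smaller falls was that of Zfp106, an RNA-binding protein (-0.53 ± 0.14, adjusted p = 0.0136), which rose by 0.87 ± 0.14 from 1 h to 4.5 h (adjusted p = 8.52e-05). Its other kept probe sets read -0.08 and -0.47 at 1 h (adjusted p = 0.908 and 0.0676). From 1 h to 4.5 h they changed by 0.03 and 0.55 (adjusted p = 0.954 and 0.0155).

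The 4 Zfp genes called higher at 1 h were Zfp948, Zfp949, Zfp217 and Zfp46, of which Zfp217 and Zfp46 lost the call with values as deposited. Zfp948 read 4.60, 3.87, 5.14, 4.66 and 5.06 in control, 4.80, 5.14, 5.71 and 5.18 in shock, 6.46, 6.77, 6.18 and 6.10 at 1 h and 5.56, 5.76, 4.83 and 5.30 at 4.5 h. The 1 h arrays lay above all others of these groups. It rose 3.28-fold against control (1.71 ± 0.35, limma adjusted p = 0.0022) and fell 2.02-fold from 1 h to 4.5 h (adjusted p = 0.0361, lost without any one of 4 arrays).

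Zfp46 was also highest at 1 h. It read 6.68, 6.88, 6.84, 6.21 and 6.65 in control, 6.43, 5.88, 6.67 and 6.27 in shock, 7.70, 7.49, 7.57 and 7.22 at 1 h and 6.53, 6.48, 6.92 and 6.33 at 4.5 h. Its 4 arrays of 1 h lay above the other 16 arrays. It rose 1.79-fold against control (0.84 ± 0.17, limma adjusted p = 0.00185) and 2.27-fold against shock (1.18 ± 0.18, adjusted p = 0.000647), and fell 1.91-fold to 4.5 h (-0.93 ± 0.18, adjusted p = 0.00034). From shock to 1 h it was the single Zfp gene called higher, and none was called lower, while 33 of the 227 had an unadjusted p under 0.05. Among all genes tested 0.873% were called higher, 0.374% lower and 1.25% in either direction in that comparison.

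Zfp217, which binds corepressor complexes with histone demethylase activity and is amplified in tumours, read 6.28, 6.74, 6.39, 6.06 and 6.24 in control. It read 7.49, 6.63, 6.87 and 6.50 in shock, 7.14, 7.14, 7.28 and 7.22 at 1 h and 6.08, 6.08, 6.22 and 6.50 at 4.5 h. The arrays of 1 h lay above those of control and of 4.5 h, and shock overlapped control. The change was 0.53 ± 0.18 in shock (limma adjusted p = 0.118) and 0.85 ± 0.18 at 1 h (1.81-fold, adjusted p = 0.00266), and it fell 1.97-fold from 1 h to 4.5 h (-0.98 ± 0.19, adjusted p = 0.000369).

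**Figure D3:**
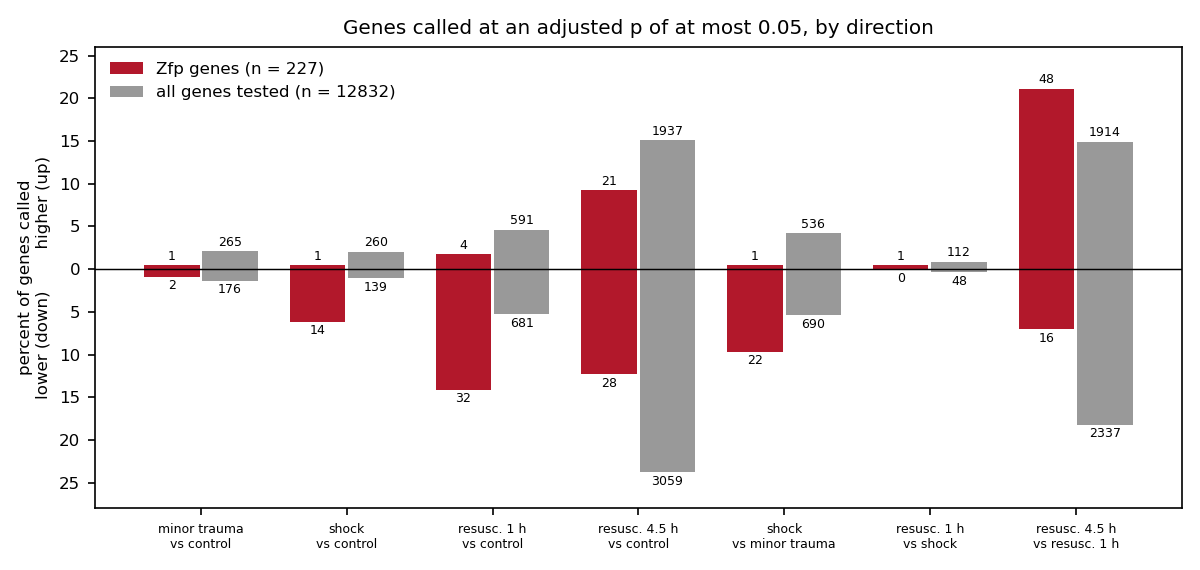
Percent of genes called higher (up) or lower (down) at an adjusted p of at most 0.05 in the 7 comparisons, for 227 Zfp genes and all 12832 genes tested, with the number of genes on each bar. In shock and at 1 h the Zfp bars for lower genes (6.17% and 14.1%) are longer than those of all genes (1.08% and 5.31%), and from 1 h to 4.5 h the Zfp bar for higher genes (21.1%) is longer than that of all genes (14.9%).

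From 1 h to 4.5 h of resuscitation more Zfp genes were called higher than lower. Of the 227, 48 (21.1%) were called higher and 16 (7.05%) lower, while among all genes tested 14.9% were higher and 18.2% lower, 33.1% in either direction. The 48 include Zfp52, which was above the array median only on arrays of 4.5 h. Zfp697, too, passed the limit on low values only with arrays of 4.5 h. Rises of genes that passed it in this way support nothing further. The median change was 0.24, beside -0.04 over all genes, and 148 of the 227 had a positive value. It was 0.25 within the arrays with a bright dap signal and 0.24 within the others, where 11 and 25 Zfp genes were called higher and 4 and 7 lower. Of 212 Zfp genes 15 and 32 were called there in either direction, beside 1446 of 12135 and 2259 of 11990 genes tested. Log2 differences of 2-fold size or more were seen as rises in 13 Zfp genes and as falls in 2. The bounds for some of these, Zfp39 and Zfp395 among them, are lower than 2-fold. Among all genes called, such differences were seen in 619 of 1914 higher and 690 of 2337 lower. Other cell types' markers moved in this comparison. Of 6 Kupffer cell markers 5 were called lower and 1 higher, of 6 endothelial markers 4 lower and of 6 stellate markers 4 lower. Of 4 monocyte markers 3 were called higher and 1 lower, and of 7 neutrophil markers 1 lower. Of 8 hepatocyte markers 1 was called higher, and of 3 cholangiocyte markers 1 higher. Their part in the Zfp values was not tested.

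This comparison shares no array with that of shock against control, so the genes of one can be followed in the other. Of the 14 Zfp genes lower in shock than in control, 13 had a positive change from 1 h to 4.5 h, with a median of 0.58. Over all 227 Zfp genes the change was positive in 148, with a median of 0.24, and over all 12832 genes tested in 6017. Of the 14, 7 (50%) were called higher, which is 14.6% of the 48. They were Zfp35, Zfp39, Zfp647, Zfp790, Zfp809, Zfp825 and Zfp961. Beside this, 21.1% of all 227 Zfp genes and 14.9% of all genes tested were called higher. The share among all genes called lower in shock was not worked out. None of the 14 was among the 16 called lower.

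The largest rise from 1 h to 4.5 h was in Zfp9. Its log2 values were 4.77, 3.21, 5.45, 5.52 and 6.74 in control, 6.71, 6.54 and 6.48 in minor trauma, 5.41, 4.88, 4.70 and 4.72 in shock, 5.25, 4.42, 4.36 and 5.04 at 1 h and 7.08, 7.11, 7.10 and 6.43 at 4.5 h. Minor trauma, 4.5 h and control 5 were high, and shock and 1 h lay below all of them. The rise from 1 h to 4.5 h was 4.48-fold (2.16 ± 0.45, limma adjusted p = 0.000842), and that against control 3.46-fold (1.79 ± 0.43, adjusted p = 0.002). Without control 5 the latter was 4.56-fold (2.19 ± 0.36, adjusted p = 5.98e-05).

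Zfp672 read 5.86, 5.48, 6.61, 6.11 and 6.91 in control, 6.87, 6.56 and 7.24 in minor trauma, 5.72, 5.54, 5.38 and 5.91 in shock, 5.75, 5.33, 5.08 and 5.49 at 1 h and 6.80, 6.59, 6.86 and 6.96 at 4.5 h. All 8 arrays of shock and 1 h lay below all 7 of minor trauma and 4.5 h. It was 1.72-fold lower than control at 1 h (-0.78 ± 0.23, limma adjusted p = 0.0315), 1.53-fold higher at 4.5 h (0.61 ± 0.23, adjusted p = 0.0391) and rose 2.62-fold between these times (1.39 ± 0.24, adjusted p = 0.000148). Zfp266 was likewise called lower than control at 1 h (-0.65 ± 0.18, adjusted p = 0.0255) and higher at 4.5 h (0.48 ± 0.18, adjusted p = 0.0419), and rose by 1.13 ± 0.19 between them (adjusted p = 0.000127). Its other kept probe sets read -0.34, 0.34 and -0.23 at 1 h (adjusted p = 0.397, 0.392 and 0.712). They read 0.50, 0.29 and 0.71 at 4.5 h (adjusted p = 0.0757, 0.317 and 0.0457). Between these times they changed by 0.84, -0.05 and 0.94 (adjusted p = 0.00723, 0.889 and 0.0159).

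Zfp410, an activator of the gene for the chromatin remodeler Chd4, rose by 0.82 ± 0.16 from 1 h to 4.5 h (limma adjusted p = 0.000414). The other kept probe set of Zfp410 read 0.34 (adjusted p = 0.165). Chd4 itself fell in the same comparison (-0.70, adjusted p = 0.00074). Zfp110, which interacts with the neurotrophin receptor p75, rose 2.07-fold (1.05 ± 0.18, adjusted p = 0.000168), with 7.0, 7.39, 7.31 and 6.88 at 1 h and 8.24, 8.25, 8.23 and 8.06 at 4.5 h, and no overlap.

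The 5 largest falls from 1 h to 4.5 h were in Zfp395, Zfp948, Zfp217, Zfp46 and Zfp703. Zfp703, a corepressor related to Zfp503, read 5.40, 6.26, 5.73 and 6.18 at 1 h and 5.46, 5.15, 4.69 and 5.01 at 4.5 h. The groups overlapped by 1 array each, the change was -0.82 ± 0.27 (1.76-fold, limma adjusted p = 0.0217), and leaving out any 1 of 3 arrays ended the call.

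At 4.5 h, 21 Zfp genes (9.25%) were called higher than in control and 28 (12.3%) lower. The 21 include Zfp52, Zfp697 and Zfp811, and the 28 include Zfp619. Each of these passed the limit on low values only with arrays of the group where it was higher. Among all genes tested 15.1% were higher and 23.8% lower, 38.9% in either direction, and the Zfp shares lay below these in both directions. The shares differed with signal level. In the brighter 114 Zfp genes 14% were higher, near the share of all genes, and 14% lower. In the dimmer 113 it was 4.42% and 10.6%. The split depended on the scaling between arrays. The counts were 4 higher and 25 lower (13.8% higher) with values as deposited and 12 and 30 (28.6%) with arrays centred on their median, against 42.9% higher with quantile normalization. With values as deposited the median over all genes was -0.27 in this comparison. Of 6 Kupffer cell markers 5 were called lower and 1 higher at 4.5 h, with a summed log2 value of 9.69 to 10.05 against 10.88 to 11.54 in control. Of 6 stellate markers 3 were called lower, and of 6 endothelial markers 3 lower and 2 higher. Of 4 monocyte markers 2 were called higher and 1 lower, and of 3 cholangiocyte markers 2 higher. Their part in the Zfp values was not tested.

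Zfp395, a DNA-binding factor induced by hypoxia in other cells, had the largest fall at 4.5 h. It read 5.70, 5.95, 5.68, 6.07 and 4.78 in control, 5.33, 5.38, 5.03 and 5.52 in shock, 5.47, 5.28, 4.50 and 5.91 at 1 h and 3.86, 3.39, 3.95 and 4.44 at 4.5 h. The 4 arrays of 4.5 h lay below the other 16, and shock and 1 h overlapped control. The change was -1.73 ± 0.29 against control (at least 2.04-fold lower, limma adjusted p = 6.75e-05) and -1.38 ± 0.30 against 1 h (at least 1.61-fold, adjusted p = 0.0014). In shock it was -0.32 ± 0.29 (adjusted p = 0.704).

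Zfp524 and Zfp362 were lower at 1 h and lower still at 4.5 h. Zfp524 read 6.91, 7.08, 6.62, 6.79 and 6.38 in control, 6.78, 6.60, 6.79 and 6.44 in shock, 6.49, 6.28, 6.18 and 6.09 at 1 h and 5.40, 5.74, 5.37 and 5.91 at 4.5 h. It was 1.41-fold lower than control at 1 h (-0.50 ± 0.15, limma adjusted p = 0.0409) and 2.22-fold lower at 4.5 h (-1.15 ± 0.15, adjusted p = 4.25e-06), and it fell 1.57-fold between them (adjusted p = 0.00343). Zfp362 was 1.70-fold lower at 1 h (adjusted p = 0.0191) and 2.69-fold lower at 4.5 h (-1.43 ± 0.21, adjusted p = 1.21e-05), and fell 1.58-fold between them (adjusted p = 0.0225).

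Zfp101, Zfp112, Zfp358, Zfp760 and Zfp41 were the others among the 8 largest falls at 4.5 h, with changes from -1.44 to -1.12. Zfp358 (2.47-fold, limma adjusted p = 0.000308) did not overlap control on its brightest probe set, and its other kept one read 0.05 (adjusted p = 0.917). Zfp760 overlapped control at 1 array, 6.02 at 4.5 h against 5.94 on control 5, and was also low in minor trauma (-1.14), shock (-1.10) and at 1 h (-0.94) without passing the test there. Zfp112 overlapped control, and its call was lost without either of 2 arrays of 4.5 h. Zfp91, a ubiquitin ligase of the noncanonical NF-kB pathway, fell 1.55-fold at 4.5 h (-0.63 ± 0.09, adjusted p = 1.63e-05), from 8.64 to 8.94 in control to 8.03 to 8.22. Its other probe sets read -0.27 (adjusted p = 0.187) and 0.11 (adjusted p = 0.785).

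After Zfp9 and Zfp949, the larger rises at 4.5 h were in Zfp811, Zfp330, Zfp697, Zfp52, Zfp710 and Zfp110. Zfp330, a nucleolar protein, read 8.09, 7.99, 8.06, 8.24 and 9.14 in control, 9.02, 9.12 and 8.93 in minor trauma, 8.16, 8.08, 8.32 and 8.28 in shock, 8.12, 8.57, 8.61 and 8.25 at 1 h and 9.19, 9.61, 9.47 and 9.04 at 4.5 h. Control 5 lay with minor trauma and 4.5 h, apart from the other control arrays. The rise at 4.5 h was 2.03-fold (1.02 ± 0.19, limma adjusted p = 0.000159), or 2.35-fold without control 5 (1.23 ± 0.13, adjusted p = 3.34e-07).

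Zfp697 was at least 1.55-fold higher at 4.5 h (0.97 ± 0.23, limma adjusted p = 0.00177) and Zfp52 at least 1.38-fold (0.83 ± 0.23, adjusted p = 0.00713). Both were at or below the array median on every control array and lost the call with values as deposited. Zfp52 was above the array median only on the 4 arrays of 4.5 h, and Zfp697 only on those 4, minor trauma 1 and minor trauma 3. Both so passed the limit on low values through the group where they were higher, and their differences support nothing further. Zfp811 was called (1.13 ± 0.32, adjusted p = 0.00703), but it was above the array median on 3 of the 20 arrays, and no fold is given. These were shock 2, 4.5 h 2 and 4.5 h 3, so Zfp811 too passed the limit only with arrays of 4.5 h. Zfp710 rose 1.60-fold (0.67 ± 0.16, adjusted p = 0.00167) on its brightest probe set, while another probe set read -0.72 (adjusted p = 0.118). Zfp710 and Zfp110 lost their calls against control with values as deposited.

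**Figure D4:**
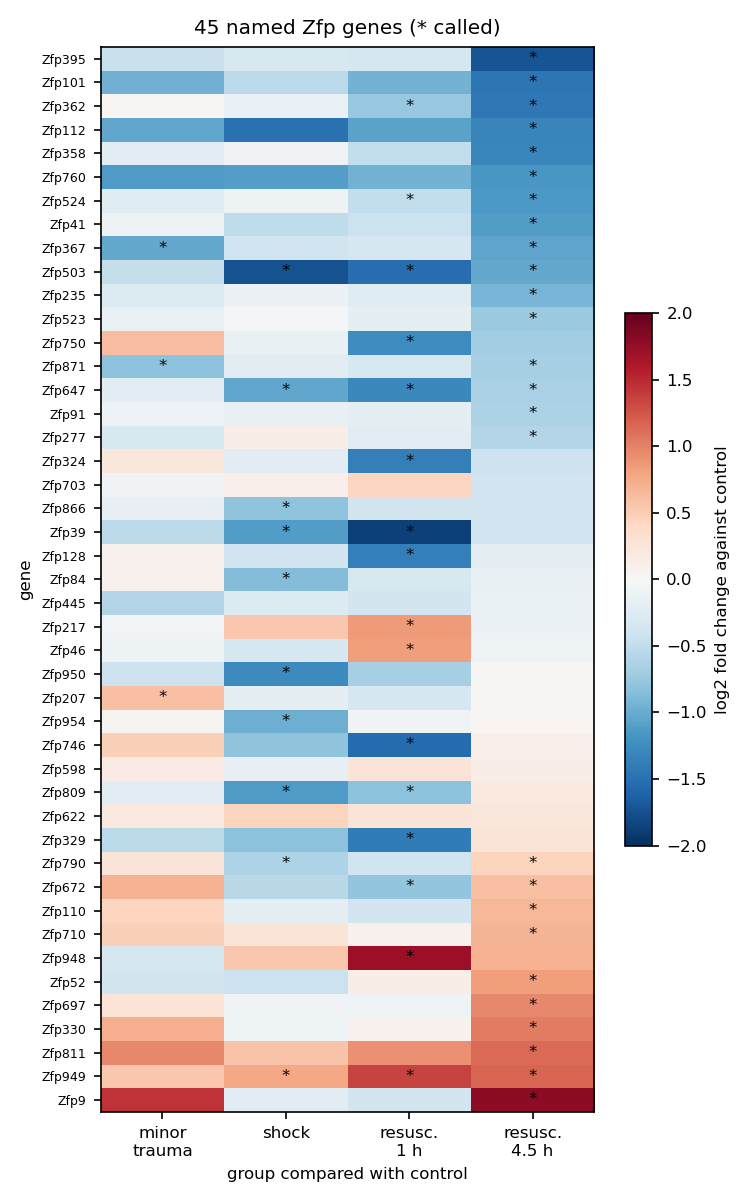
Log2 fold change against control in the 4 injury groups for 45 Zfp genes, ordered by the change at 4.5 h. Red is higher and blue lower than control, with the colour scale from -2 to 2, and a star marks a call at an adjusted p of at most 0.05. Zfp395 (-1.73) and Zfp9 (1.79) are at the ends, and Zfp39, Zfp746 and Zfp329 are blue at 1 h and pale at 4.5 h.

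Minor trauma against control gave 1 Zfp gene higher (0.441%) and 2 lower (0.881%), beside 2.07% and 1.37% of all genes tested, 3.44% in either direction. Zfp207, a spindle assembly protein, rose 1.51-fold (0.60 ± 0.14, limma adjusted p = 0.0289), with 8.68, 8.59 and 9.11 in minor trauma and 7.98 to 8.37 in control. Its 5 other probe sets had values from -0.73 to -0.18, none called. Zfp367 fell 2.03-fold (-1.02 ± 0.25, adjusted p = 0.0333), with 6.58, 6.97 and 5.58 against 7.08 to 7.90. Zfp871 fell 1.77-fold (-0.83 ± 0.23, adjusted p = 0.0482) with an overlap, and its call was lost without any one of 17 arrays.

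The minor trauma count turned on the scaling and on single arrays. It was 1 higher and none lower with values as deposited, 4 and 2 with arrays centred on their median, and 2 and 2 with equal trimmed means. By limma the count was 0 without minor trauma 3, where 23 Zfp genes had an unadjusted p under 0.05, and without each of control 1, 2, 3 and 4, where 33 to 39 had. It was 13 without minor trauma 1, 12 without minor trauma 2, and 16 (6 higher and 10 lower) without control 5. Without control 5, Zfp9 was 3.57-fold higher in minor trauma (1.84 ± 0.39, limma adjusted p = 0.00476), Zfp330 1.90-fold (0.93 ± 0.14, adjusted p = 0.000373) and Zfp672 1.83-fold (0.87 ± 0.23, adjusted p = 0.018). With all arrays the adjusted p was 0.0832 for Zfp9, 0.0517 for Zfp330 and 0.113 for Zfp672. Some probe sets were much dimmer on minor trauma 3 than on the other minor trauma arrays. Zfp445, which guards imprinted loci, read 10.30 and 10.36 on those and 7.66 on that one, and Zfp329 read 6.11 and 6.01 against 4.02.

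Shock against minor trauma gave 22 Zfp genes lower (9.69%) and 1 higher (0.441%), beside 5.38% and 4.18% of all genes tested, 9.55% in either direction. The median change was -0.05, beside -0.02 over all genes, and -0.19 without minor trauma 3. Zfp9 was 3.14-fold lower (-1.65 ± 0.49, limma adjusted p = 0.0353), Zfp746 2.43-fold (-1.28 ± 0.36, adjusted p = 0.0297) and Zfp672 2.38-fold (-1.25 ± 0.26, adjusted p = 0.00471). Zfp503 was at least 1.52-fold lower (-1.26 ± 0.24, adjusted p = 0.00245), and Zfp954 2.06-fold (-1.05 ± 0.29, adjusted p = 0.0265). Of these, the calls of Zfp503 and Zfp672 held without each array in turn. Zfp277 was higher, 1.38-fold (0.46 ± 0.13, adjusted p = 0.0245), and lost its call without any one of 3 arrays, with arrays centred on their median, and with the mean of its probe sets (0.23, adjusted p = 0.304). The count was 10 without shock 2 and 14 without shock 3. Within the arrays with a bright dap signal 3 of 212 Zfp genes were called, beside 251 of 12135 genes tested. The other arrays hold a single minor trauma array, whose spread is taken from the remaining groups, so their calls are not read here.

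Over the 5 groups together, limma's F test called 100 of the 227 Zfp genes (44.1%), beside 45.4% of all genes tested, a share close to that background. The smallest adjusted p was that of Zfp503 (4.2e-06), followed by Zfp524 (3.02e-05), Zfp362 (3.35e-05), Zfp39 (4.61e-05), Zfp790 (4.91e-05) and Zfp672 (9.37e-05). In none of the 4 comparisons with control was a call made for 145 Zfp genes. The share of such genes over all genes tested was not worked out, so this count is not read as a trait of Zfp genes. Of the 6 brightest probe sets, those of Zfp622, Zfp445 and Zfp598 did not pass the F test (adjusted p = 0.104, 0.666 and 0.0679). Zfp622 takes part in maturation of the large ribosomal subunit and Zfp598 marks stalled ribosomes. Zfp871, Zfp330 and Zfp91 passed it.

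Genes of other zinc finger families, and partners of KRAB proteins, were set beside the Zfp genes. Of 16 Zscan and Zkscan genes none was called in shock, where 4 had an unadjusted p under 0.05 and the median was -0.32, and 5 were lower and none higher at 1 h, where it was -0.48. From 1 h to 4.5 h 3 of them were higher and none lower, and the median was 0.30. Of 30 Zbtb genes, which pair fingers with a BTB domain, 6 were lower and 3 higher at 1 h, and 8 higher and 6 lower from 1 h to 4.5 h. Their medians were -0.19 in shock, -0.26 at 1 h and -0.15 at 4.5 h. Among all genes tested 5.31% were lower and 4.61% higher at 1 h, and 14.9% were higher and 18.2% lower from 1 h to 4.5 h. No test was made of a difference between these families and the Zfp genes.

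Of 27 KRAB corepressor and heterochromatin genes, 1 (3.7%) was lower in shock, 3 (11.1%) were lower at 1 h, and 5 were higher and 5 lower (18.5% each) at 4.5 h. Among all genes tested 1.08% were lower in shock and 5.31% at 1 h. At 4.5 h 15.1% of all genes were higher and 23.8% lower. From 1 h to 4.5 h 7 of the 27 (25.9%) were higher and 2 (7.41%) lower, beside 14.9% and 18.2% of all genes, and the median was 0.27. Trim28 itself fell slightly at 1 h (-0.35, limma adjusted p = 0.0372) and was at -0.19 in shock (adjusted p = 0.438) and -0.09 at 4.5 h (adjusted p = 0.547). Setdb1 read -0.43 at 1 h (adjusted p = 0.0559). Atf7ip, which stabilises Setdb1, was lower in shock (-0.63, adjusted p = 0.0469) and at 1 h (-0.76, adjusted p = 0.00574). Tasor, of the HUSH silencing complex, was lower at 1 h (-0.91, adjusted p = 0.0187). At 4.5 h Daxx was higher (1.75, adjusted p = 1.06e-08), as was Morc3 (1.12, adjusted p = 0.000899). Chd3 (-0.97, adjusted p = 2.54e-05) and Chd4 (-0.82, adjusted p = 6.67e-05), remodelers of the NuRD complex, were lower.

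**Figure D5:**
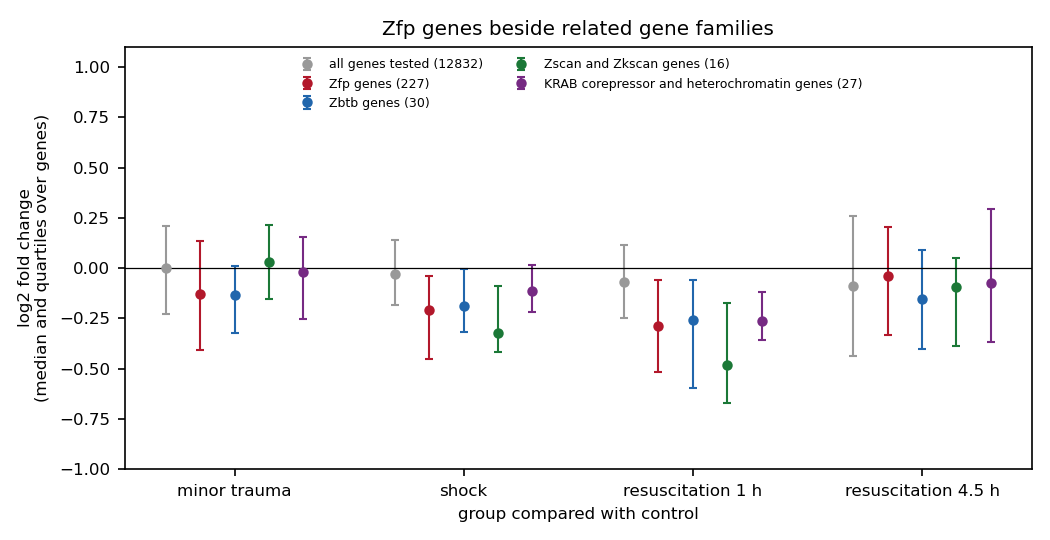
Median log2 fold change against control in the 4 injury groups, with quartiles over genes as bars, for all genes tested, Zfp genes, Zbtb genes, Zscan and Zkscan genes and KRAB corepressor and heterochromatin genes. At 1 h the medians are -0.07, -0.29, -0.26, -0.48 and -0.26 in that order, and at 4.5 h all lie between -0.15 and -0.04.

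Of the 227 Zfp genes 111 had another Zfp gene as direct neighbour in the order of RefSeq genes on GRCm38.p6, a grouping made after the values were seen and so not tested. Of these 111, 21 (18.9%) were called lower at 1 h, with a median of -0.36, and of the other 116, 11 (9.48%), with a median of -0.22. Among all genes tested 5.31% were called lower at 1 h. In shock each group had 7 called lower (6.31% and 6.03%, beside 1.08% of all genes), and the medians were -0.31 and -0.16. From 1 h to 4.5 h 26 and 22 were called higher (23.4% and 19.0%, beside 14.9% of all genes). Of 51 neighbouring pairs, both genes were called at 1 h in 4, all lower, namely Zfp24 with Zfp35, Zfp266 with Zfp846, and Zfp763 with both Zfp563 and Zfp952. At 4.5 h both were called in 3 pairs, with the same direction in 1, and from 1 h to 4.5 h in 6, with the same direction in 3. The share of such pairs over all genes was not worked out. Neighbouring Zfp genes can be similar in sequence, and a probe set may then pick up more than 1 of them. Of the 227 probe sets 20 were of the types s_at and x_at, which can match more than 1 transcript.

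Not all probe sets of a gene told the same. For 41 called Zfp genes 139 results came from another kept probe set, over the 7 comparisons. The sign was the same in 115 (30 of them called) and opposite in 24. The opposite ones that were called were those of Zfp235 (-0.69 on the brightest probe set and 1.42 on the other, limma adjusted p = 0.000845) and Zfp523 (-0.56 and 1.05, adjusted p = 0.0042), both from 1 h to 4.5 h.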

How the data were processed

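The deposited values were linear signal intensities from MAS5, as the authors' processing notes name it (version not given in the sources used here). They were not scaled between arrays, with array medians from 14.05 to 29.11. A pseudocount of 6 was added, log2 was taken, and the 20 arrays were quantile normalized. Probe sets with 1 gene in the platform annotation were used (34945 of 45101), and those above the median of their own array on at least 3 arrays were kept (22818). The brightest stood for each gene.

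A linear model of 5 group means was fitted with limma 3.58.1 in R 4.3.3 (with data.table, version 1.17.8), with 7 contrasts, an intensity trend, and Benjamini-Hochberg adjustment over 12832 genes. The procedure was tested on simulated data. Python 3.11.15 (pandas 2.3.3, numpy 2.4.6, matplotlib 3.10.9) served for promoters and figures. Named genes were the 8 largest called rises and falls of each comparison against control, the 5 largest in the remaining 3 comparisons, the 6 brightest, the 6 with the smallest F test p, and those with another probe set called the opposite way, and a few more were picked for a known role after their values were seen. The members, lists and tests were chosen with earlier results of these data known. A marker sum is the log2 of the summed normalized linear values of a list. The number of arrays limits the precision of every value. Alternatives covered scaling, pseudocount, filter, probe set choice, symbols, array weights, spike-in set, replicate number, variance trend and single arrays.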

Additional observations from a re-analysis of the deposited data

Results flagged for a closer look

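In 4 groups of 4 or 5 arrays, for the 45 named Zfp genes and for the median change of all Zfp genes, 184 sets of values were looked at. Of these 10, all of named genes, held 1 array far from the others, and chance gives about 1 in 20. The log2 value of Zfp809 was 7.209 on shock 4, against 6.499 to 6.538 on the other shock arrays, and the fall of Zfp809 in shock passed the test without each array in turn. Zfp330 read 9.136 on control 5, where the other control arrays gave 7.994 to 8.238, and Zfp760 read 5.945 on control 5, where the others gave 6.579 to 6.737. Zfp746 read 6.182 on control 1, against 6.378 to 6.422. Zfp128 read 3.523 on shock 2, against 4.748 to 4.996, and 4.229 on the array 1 h 2, against 3.28 to 3.424. On the 4.5 h arrays, Zfp9 read 6.428 on 4.5 h 4, against 7.085 to 7.114, Zfp110 read 8.057 on 4.5 h 4, against 8.231 to 8.252, and Zfp445 read 9.544 on 4.5 h 3, against 9.989 to 10.05. Zfp91 read 8.693 on the array 1 h 4, against 8.489 to 8.511.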

How the results depend on the processing

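Of 2036 values of named Zfp genes under alternatives, 1837 kept direction and side of the threshold, 197 kept direction without passing, and 2 reversed. Both reversed with the mean of a gene's probe sets, Zfp207 in minor trauma (-0.26, limma adjusted p = 0.455) and Zfp710 at 4.5 h (-0.022, 0.946). The counts of called Zfp genes were 3 in minor trauma, 15 in shock, 36 at 1 h, 49 at 4.5 h, 23 in shock relative to minor trauma, 1 between shock and 1 h, 64 from 1 h to 4.5 h and 100 by the F test. In that order they became 1, 5, 15, 29, 8, 0 (12 at an unadjusted p under 0.05), 15 and 45 with values as deposited. Within the bright dap arrays they became 1, 3, 20, 3, 0 (19), 15 and 22 from shock onward. Within the others they became 0 (7 unadjusted), 1, 10, 23, 0 (36), 0 (18), 32 and 21. Fewer arrays enter these fits, and among the others minor trauma has 1, assumed to vary like the other groups. Array weights gave 9 in minor trauma, 30 in shock, 35 for shock against minor trauma and 7 from shock to 1 h. Without control 5 and minor trauma 3 these were 8, 26 and 5 for minor trauma, shock and shock to 1 h. Minor trauma also gave 6 with median centring and 5 with a filter of 10 arrays, and the mean of probe sets gave 3 from shock to 1 h. The cause was not tested for the others.

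Leaving out each array in turn gave 0 to 16 in minor trauma, 7 to 28 in shock, 22 to 50 at 1 h, 40 to 60 at 4.5 h, 10 to 27 in shock relative to minor trauma, 1 to 5 between shock and 1 h, 48 to 80 from 1 h to 4.5 h and 87 to 115 by the F test. The median change of the Zfp genes stayed below 0 under every alternative run in shock (-0.28 to -0.16) and at 1 h (-0.37 to -0.22) and above 0 from 1 h to 4.5 h (0.16 to 0.30). It changed sign in minor trauma (-0.21 to 0.03) and at 4.5 h (-0.20 to 0.02). With values as deposited the median over all genes was 0.20 in minor trauma, -0.23 for shock against minor trauma and -0.16 from 1 h to 4.5 h. Arrays with the same replicate number did not deviate together (36 pairs, correlation -0.08 to 0.17), and a replicate block gave 13 calls in minor trauma and no other count beyond 1.5 times. Dim signal limits the folds written as bounds.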
